A study of Homo sapiens with 36 samples.

Results

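The 10 genes described here are circadian clock genes: the period genes PER1, PER2 and PER3, the cryptochromes CRY1 and CRY2, the nuclear receptors NR1D1 and NR1D2 (REV-ERB alpha and beta), and the transcription factors DBP, TEF and BHLHE40. They were chosen by symbol, and no measured value entered that rule, though earlier results of these data were known. All 10 were present among the 15186 genes of the count table and passed the filter on low counts. RNA was sequenced from U2OS cells, a human osteosarcoma line, carrying a stable transgene for the alpha form of the glucocorticoid receptor (GR). All groups therefore share that transgene, and the labels name no separate clones. There were 6 siRNA conditions. The condition siNSsiNS had only the control siRNA, called siNS. The single depletions siHic5siNS, siCHD9siNS and siBRMsiNS combined that control with siRNA to one of Hic-5, CHD9 and BRM, and the double siRNA conditions siCHD9siHic5 and siBRMsiHic5 combined the Hic-5 siRNA with one of the others. Hic-5 is a coregulator of GR encoded by TGFB1I1, CHD9 is a chromatin remodeler, and BRM is the remodeler ATPase encoded by SMARCA2. After 48 h of siRNA each condition was given either 100 nM of the synthetic glucocorticoid dexamethasone (dex) or ethanol vehicle for 8 h. There were 3 replicates of each of the 12 groups, prepared on different days, so 36 libraries. The study asked whether genes whose hormone response is blocked by Hic-5 need CHD9 or BRM once Hic-5 has been depleted.

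The clock is a negative feedback loop. CLOCK and BMAL1 (ARNTL) bind E-box sequences and activate PER and CRY genes, whose proteins return to the nucleus and repress CLOCK and BMAL1. BHLHE40 (DEC1) competes for the same E-boxes, the REV-ERB proteins repress BMAL1 through elements shared with the ROR receptors, and DBP and TEF carry the rhythm to output genes through D-box sequences. Glucocorticoids are a known resetting signal for clocks of peripheral cells, and PER1 is a well-known direct target of GR. The labels do not say at which clock phases the cells were, or whether dex had aligned them. A level in these libraries is an average over the cells of a culture. With dex given for 8 h alone, a change of level cannot be told apart from a change of phase. Fewer cells expressing a gene also cannot be told apart from less RNA per cell.

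Promoter sequence was taken from RefSeq (GRCh38.p14) for the 250 bases before each annotated start, in 14 windows that cover all 10 genes. The 4 motifs searched, on both strands, were the E-box CACGTG, the D-box TTANNTAA, the hexamer AGGTCA read by ROR and REV-ERB, and the hexamer AGAACA of one arm of a GR element. None of these motifs overlapped another in a window shown. Among 35116 promoter windows of the same length, 6.34% held the E-box, 5.23% the D-box, 12.1% AGGTCA and 12.4% AGAACA. The stretches below hold only bases outside annotated exons, run 5′ to 3′ on the gene's own strand, and carry motif matches in capitals. They are shown for genes whose changes with dex or siRNA are described below. PER1 lies on the minus strand of chromosome 17 and its stretch is chr17:8152436-8152654, with an E-box 173 to 168 and AGGTCA on the opposite strand 144 to 139 bases before the start.
PER1: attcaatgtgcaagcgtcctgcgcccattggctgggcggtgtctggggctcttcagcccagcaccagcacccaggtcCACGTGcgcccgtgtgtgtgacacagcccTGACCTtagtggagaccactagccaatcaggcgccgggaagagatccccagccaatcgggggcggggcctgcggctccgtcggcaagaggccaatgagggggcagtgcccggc
The CRY2 stretch is chr11:45846868-45847117 on the plus strand, with AGGTCA 62 to 57 bases before its start.
CRY2: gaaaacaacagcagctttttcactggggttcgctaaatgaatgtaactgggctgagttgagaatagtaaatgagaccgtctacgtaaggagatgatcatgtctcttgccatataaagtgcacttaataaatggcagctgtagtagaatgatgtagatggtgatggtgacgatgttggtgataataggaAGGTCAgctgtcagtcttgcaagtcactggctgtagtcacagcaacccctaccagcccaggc
The NR1D2 stretch is chr3:23945871-23946120 on the plus strand, with 2 E-boxes (155 to 150 and 105 to 100 bases before the start) and a D-box (194 to 187).
NR1D2: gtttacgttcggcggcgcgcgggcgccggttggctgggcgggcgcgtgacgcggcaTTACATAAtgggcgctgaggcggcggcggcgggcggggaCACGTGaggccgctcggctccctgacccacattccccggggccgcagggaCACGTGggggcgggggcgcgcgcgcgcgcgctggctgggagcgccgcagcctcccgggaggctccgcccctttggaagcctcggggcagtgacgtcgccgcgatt
The TEF stretch is chr22:41367205-41367332 on the plus strand, with a D-box (242 to 235) and an E-box (195 to 190).
TEF: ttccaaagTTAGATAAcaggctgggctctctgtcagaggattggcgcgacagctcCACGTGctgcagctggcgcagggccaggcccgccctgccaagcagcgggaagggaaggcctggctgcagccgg
The DBP stretch is chr19:48637439-48637629 on the minus strand, and the NR1D1 stretch is chr17:40100726-40100839, also on the minus strand. Neither their printed stretches nor their whole windows held any of the 4 motifs in these letters.
DBP: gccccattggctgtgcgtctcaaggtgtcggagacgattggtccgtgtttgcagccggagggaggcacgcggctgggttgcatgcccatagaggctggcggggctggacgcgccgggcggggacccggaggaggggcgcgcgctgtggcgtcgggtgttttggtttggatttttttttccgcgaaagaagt
NR1D1: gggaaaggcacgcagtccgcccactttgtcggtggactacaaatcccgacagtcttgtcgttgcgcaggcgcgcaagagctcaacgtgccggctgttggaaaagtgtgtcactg
Of the windows not printed, that of BHLHE40 held an E-box 245 to 240 bases before the start and the only AGAACA among the members, 153 to 148 bases before it. The first PER3 window held 2 D-boxes, 177 to 170 and 136 to 129 bases before the start. The second TEF window held an E-box 193 to 188 and the second CRY2 window AGGTCA 64 to 59 bases before the start. The second windows of PER3 and NR1D2 held no match. The PER2 and CRY1 windows held no match. A match is a run of letters and not evidence of binding.

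Library totals ran from 27.44 M to 47.15 M counts, and levels are CPM, counts relative to library size with the upper quartile of each library as the scale. The line's mesenchymal identity was seen in COL1A1 (1150 to 3510 CPM), SPARC (1190 to 3130 CPM) and VIM (991 to 2110 CPM), against at most 4.84 CPM for EPCAM, 1.9 CPM for CDH1 and 4.31 CPM for PECAM1. RUNX2, a bone-lineage factor, was at 13 to 63.7 CPM. The targeted genes fell in vehicle against siNSsiNS: TGFB1I1 by 2.01 on the log2 scale in siHic5siNS, SMARCA2 by 1.79 in siBRMsiNS and CHD9 by 0.56 in siCHD9siNS (edgeR adjusted p = 1.47e-07, 9.78e-07 and 0.0194). In the libraries labelled siCHD9siHic5, TGFB1I1 fell by 1.93 but CHD9 was higher than in siNSsiNS, by 0.47 (edgeR adjusted p = 0.0292), so the label's CHD9 depletion was not seen in its RNA. Of these siRNA comparisons, siBRMsiHic5 lowered both of its targets, TGFB1I1 by 2.45 and SMARCA2 by 2.01. CHD9, which was not targeted there, also fell in siBRMsiHic5, by 0.97 (edgeR adjusted p = 0.000107), to 42, 51.6 and 42.1 CPM, below the mean of 60.1 CPM in siCHD9siNS. The dex targets FKBP5 and TSC22D3 rose in all 6 conditions with and without pairing by replicate.

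Some libraries stood apart in ways that touch the clock genes. The vehicle libraries numbered 2 of siNSsiNS, siHic5siNS, siCHD9siNS and siCHD9siHic5 had high PER1: 2.43, 3.66, 2.72 and 2.42 times the mean of replicates 1 and 3. The same ratio for BHLHE40 was 3.01, 1.97, 2.22 and 1.88. In siBRMsiNS and siBRMsiHic5 the ratio was 0.762 and 1.09 for PER1, and 0.409 and 0.494 for BHLHE40. Of 10 immediate early genes, such as FOS and EGR1, the rapid-response genes of serum and stress, 9, 9, 10 and 10 were above 1.5 times in the first 4 conditions and none in the BRM pair (medians 3.89, 2.68, 3.71 and 2.88 against 0.522 and 0.423). In siNSsiNS their summed level was 455, 1290 and 330 CPM in the 3 vehicle libraries and 351, 415 and 299 CPM in dex. FKBP5 in the same 4 libraries was 0.752, 0.781, 0.575 and 0.533 times its partners, so it was not higher there. The siBRMsiNS replicate 1 pair also stood apart: in vehicle it held 2.29 times the PER1, 2.62 times the PER2 and 2.73 times the CRY2 of the mean of the other replicates. The siBRMsiNS replicate 3 pair stood apart the other way over all genes tested. On the first principal component of deviations from group means, its vehicle and dex libraries were at -39.47 and -39.19, against 31.21 and 29.56 for replicate 1. The part of any of these libraries in the results was not tested. The calls of clock genes lost without the libraries numbered 2 are given beside the results.

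**Figure D1:**
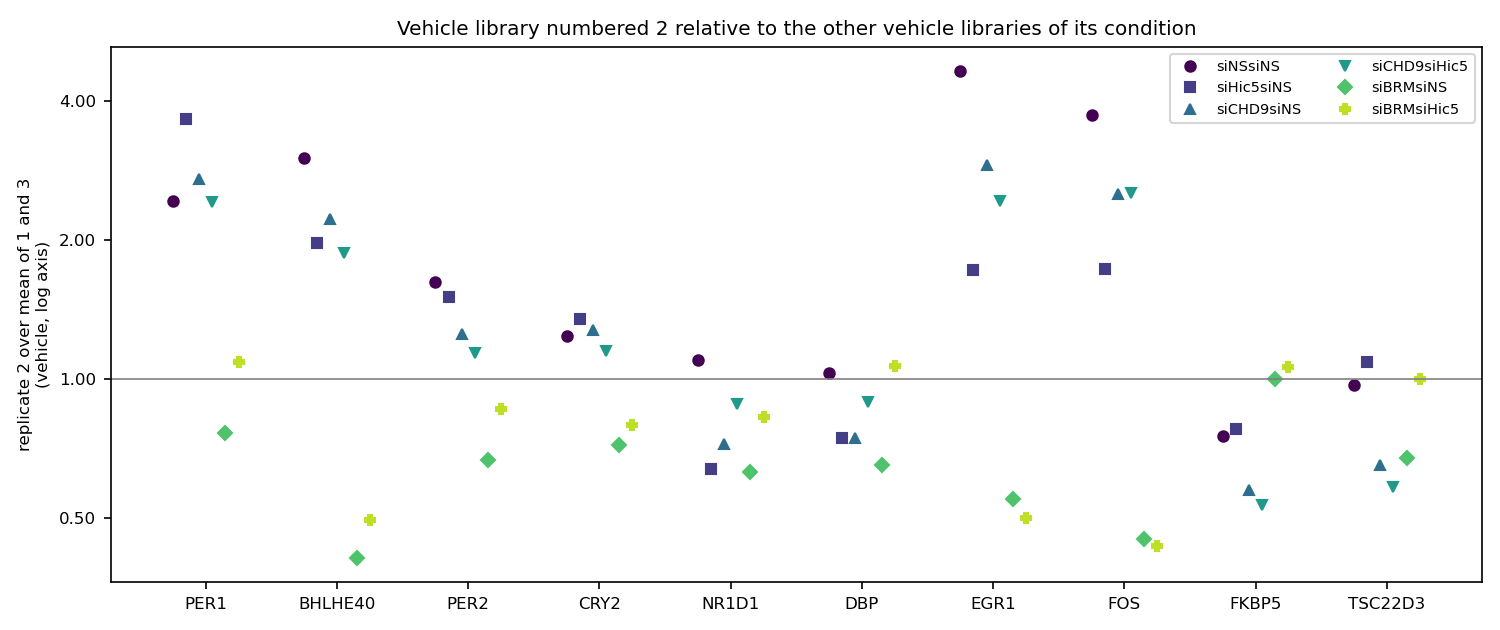
Level in the vehicle library numbered 2 divided by the mean of vehicle libraries 1 and 3 of the same siRNA condition (log axis), for 6 clock genes, 2 immediate early genes (EGR1, FOS) and 2 dex targets (FKBP5, TSC22D3). PER1 and BHLHE40 sat at 1.88 or above in the 4 conditions without BRM siRNA and at 1.09 or below in the 2 conditions with it, and EGR1 and FOS were above 1 in the same 4.

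Compared per kilobase of the principal transcript, in control vehicle libraries (siNSsiNS, n = 3), BHLHE40 stood highest at 55.6 ± 39.2 CPM per kb (SD), followed by PER1 at 23.8 ± 13.8, NR1D2 at 17.5 ± 2.78, CRY1 at 16.1 ± 2.01, CRY2 at 13.3 ± 3.03, NR1D1 at 12.7 ± 3.66, TEF at 12.5 ± 1.97, DBP at 10.6 ± 1.8, PER3 at 9.55 ± 0.438 and PER2 at 7.22 ± 2.55 CPM per kb. Each neighbouring pair in that order differed by less than the larger of its SDs, so the order between neighbours is not resolved. The annotation used for counting is also not known. All annotated exons of DBP cover 6544 bases, against 2229 in its principal transcript, so its level per kb would be lower by that length.

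With dex, 4 of the clock genes lay on one side of vehicle in nearly all of the 18 vehicle and dex pairs, which is a description and not a test. PER1, a repressor of the loop, was higher with dex in 17 of 18 pairs and CRY2, its partner repressor, in 18 of 18. NR1D1, the repressor of BMAL1, was lower in 17 of 18 and BHLHE40, the E-box competitor, in 18 of 18. NR1D2 was lower in 15 of 18, CRY1 higher in 13, PER3 and DBP lower in 12, TEF higher in 10, and PER2 split 9 and 9. In single conditions with no pairing term, edgeR's quasi-likelihood test called none of the 10 genes at an adjusted p under 0.05, against a background of 0.343% of 15179 genes called in siNSsiNS, 0.876% in siHic5siNS, 0.949% in siCHD9siNS, 0.382% in siBRMsiNS, 0.455% in siCHD9siHic5 and 0.501% in siBRMsiHic5. At an unadjusted p under 0.05 there were 2, 0, 1, 1, 0 and 1 clock genes in those 6 conditions, and DESeq2 and limma also called 0 in each. Vehicle and dex libraries of the same number deviated together, which made pairs of them. With that pairing (the replicate block), 3, 1, 5, 2, 2 and 1 of the 10 passed, against backgrounds of 2.5%, 8.93%, 24.1%, 3.91%, 4.74% and 5.95% of all genes. The median change over the 10 genes in siNSsiNS was -0.13, against 0.01 over all genes.

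**Figure D2:**
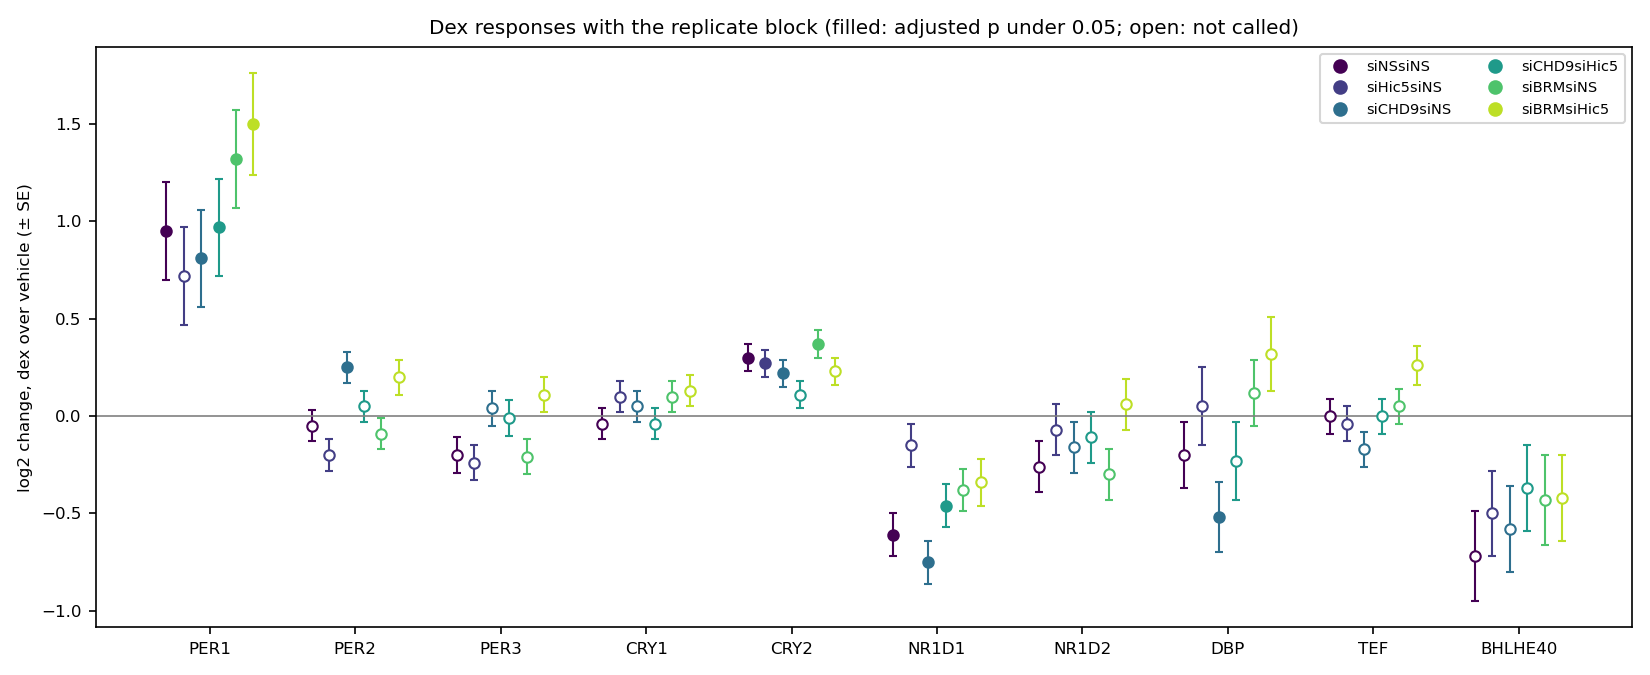
log2 change with dex for each clock gene and siRNA condition, fitted with the replicate block; points are estimates, bars are SE, and filled points had an adjusted p under 0.05. PER1 and CRY2 lie above 0 in all 6 conditions and NR1D1 and BHLHE40 below 0 in all 6, while the other genes scatter on both sides.

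PER1 had the largest dex response of the set. In siNSsiNS it stood at 92.8, 185 and 58.9 CPM in vehicle replicates 1, 2 and 3 and at 220, 217 and 155 CPM with dex, a paired fold of 2.37, 1.18 and 2.63. In siHic5siNS it was 48.5, 192 and 56.2 CPM in vehicle and 109, 187 and 118 CPM with dex, and in siCHD9siNS 49.4, 127 and 43.8 against 110, 142 and 95 CPM. In siCHD9siHic5 it was 34, 76.8 and 29.4 against 87.3, 91.9 and 72 CPM. The vehicle and dex groups overlapped in siNSsiNS, siHic5siNS, siCHD9siNS and siCHD9siHic5, each time through the vehicle library numbered 2. In siBRMsiNS PER1 stood at 82.8, 42.8 and 29.4 CPM in vehicle and 192, 107 and 78.8 CPM with dex, where the groups overlapped through replicate 1. In siBRMsiHic5 it stood at 30.8, 29.9 and 24.3 CPM in vehicle and 86.3, 83.4 and 69.9 CPM with dex, and the groups did not overlap. The paired folds there were 2.81, 2.79 and 2.88.

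With the block, PER1 rose by 0.95 ± 0.25 (SE) in siNSsiNS (edgeR adjusted p = 0.0473), 0.81 in siCHD9siNS (0.0238), 1.32 in siBRMsiNS (0.00458), 0.97 in siCHD9siHic5 (0.0328) and 1.5 ± 0.26 in siBRMsiHic5 (0.0014), all on the log2 scale. In siHic5siNS the change was 0.72 and did not pass (adjusted p = 0.0805). The calls in siBRMsiNS and siBRMsiHic5 held without any single pair. Those in siNSsiNS, siCHD9siNS and siCHD9siHic5 did not pass without pair 1 (0.8, 0.64 and 0.77, adjusted p = 0.353, 0.216 and 0.253) or pair 3 (0.74, 0.65 and 0.8, adjusted p = 0.305, 0.142 and 0.247). The PER1 call in siNSsiNS was also lost with TMM scaling factors in place of upper-quartile ones (block, 0.93, edgeR adjusted p = 0.056). Without the block no condition passed, the lowest adjusted p being 0.383 in siBRMsiHic5. Over the mean of the 6 responses, a contrast added after the pairs were seen, PER1 rose by 0.93 ± 0.2 without the block (edgeR adjusted p = 0.0022) and 1.05 ± 0.1 with it (3.83e-07). Leaving out all libraries numbered 2 gave 1.28 and 1.29. The fit with the block counts the 18 pairs as independent, though they share 3 replicate numbers. The pair 2 folds of PER1 were 1.18, 0.977, 1.12 and 1.2 in siNSsiNS, siHic5siNS, siCHD9siNS and siCHD9siHic5, so pairs of one number departed together. The SE and adjusted p of this mean may therefore be too small.

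CRY2 changed little in size but in the same direction everywhere. Its paired folds ran from 1.04 to 1.42 over the 18 pairs. In siNSsiNS it was 62.4, 64.3 and 41.3 CPM in vehicle and 77, 72.4 and 55.9 CPM with dex, and the groups overlapped. With the block CRY2 rose by 0.3 ± 0.07 in siNSsiNS, 0.27 in siHic5siNS, 0.22 in siCHD9siNS and 0.37 in siBRMsiNS (edgeR adjusted p = 0.0174, 0.0166, 0.0256 and 0.00433). In siCHD9siHic5 and siBRMsiHic5 the changes were 0.11 and 0.23 (adjusted p = 0.456 and 0.0653). Each CRY2 call was lost without 1 pair or another: pairs 1 or 3 in siNSsiNS (0.3 and 0.24, adjusted p = 0.143 and 0.198), 2 or 3 in siHic5siNS (0.23 and 0.28, 0.145 and 0.0591), 1 or 2 in siCHD9siNS (0.21 and 0.18, 0.149 and 0.146) and 2 in siBRMsiNS (0.3, 0.0925). Without all libraries numbered 2 those in siHic5siNS, siCHD9siNS and siBRMsiNS did not pass (0.23, 0.18 and 0.3, adjusted p = 0.0812, 0.0978 and 0.055). The mean response was 0.25 ± 0.03 with the block (edgeR adjusted p = 2.08e-06) but did not pass without it (adjusted p = 0.468).

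NR1D1 stood at 44.1, 37.5 and 24.2 CPM in siNSsiNS vehicle and 31.1, 24.3 and 14.8 CPM with dex, and the groups overlapped. In siCHD9siNS it was 36.3, 24.3 and 30.8 against 21.8, 16.2 and 16.4 CPM, where all 3 dex libraries were below all 3 vehicle libraries. In siHic5siNS the second pair went the other way, from 23.1 to 28.7 CPM. With the block NR1D1 fell by 0.61 ± 0.11 in siNSsiNS, 0.75 in siCHD9siNS and 0.46 in siCHD9siHic5 (edgeR adjusted p = 0.00399, 0.000301 and 0.0175), and the first 2 of these held without any single pair. The third did not pass without pair 1, 2 or 3 (-0.47, -0.46 and -0.46, adjusted p = 0.0997, 0.0834 and 0.103). The changes of -0.15, -0.38 and -0.34 in siHic5siNS, siBRMsiNS and siBRMsiHic5 did not pass (adjusted p = 0.441, 0.0691 and 0.0961). Over the mean of the 6 responses NR1D1 fell by 0.45 ± 0.12 without the block (edgeR adjusted p = 0.0168) and by 0.45 ± 0.05 with it (6.68e-07); without the libraries numbered 2 the value with no block was -0.47 (0.11).

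BHLHE40 was lower with dex in every pair. In siNSsiNS it was 139, 348 and 92.3 CPM in vehicle and 105, 120 and 79.5 CPM with dex. In siBRMsiHic5 it was 212, 115 and 253 CPM in vehicle and 116, 113 and 195 CPM with dex, and the groups overlapped in both conditions. Paired folds ran from 0.346 to 0.982. No single condition passed (block changes -0.37 to -0.72, edgeR adjusted p = 0.0641 to 0.448). Over the mean of the 6 responses it fell by 0.5 ± 0.09 with the block (edgeR adjusted p = 0.000391), while without the block the change of -0.58 ± 0.18 did not pass (adjusted p = 0.0556). With the block, -0.4 was the value without the libraries numbered 2.

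**Figure D3:**
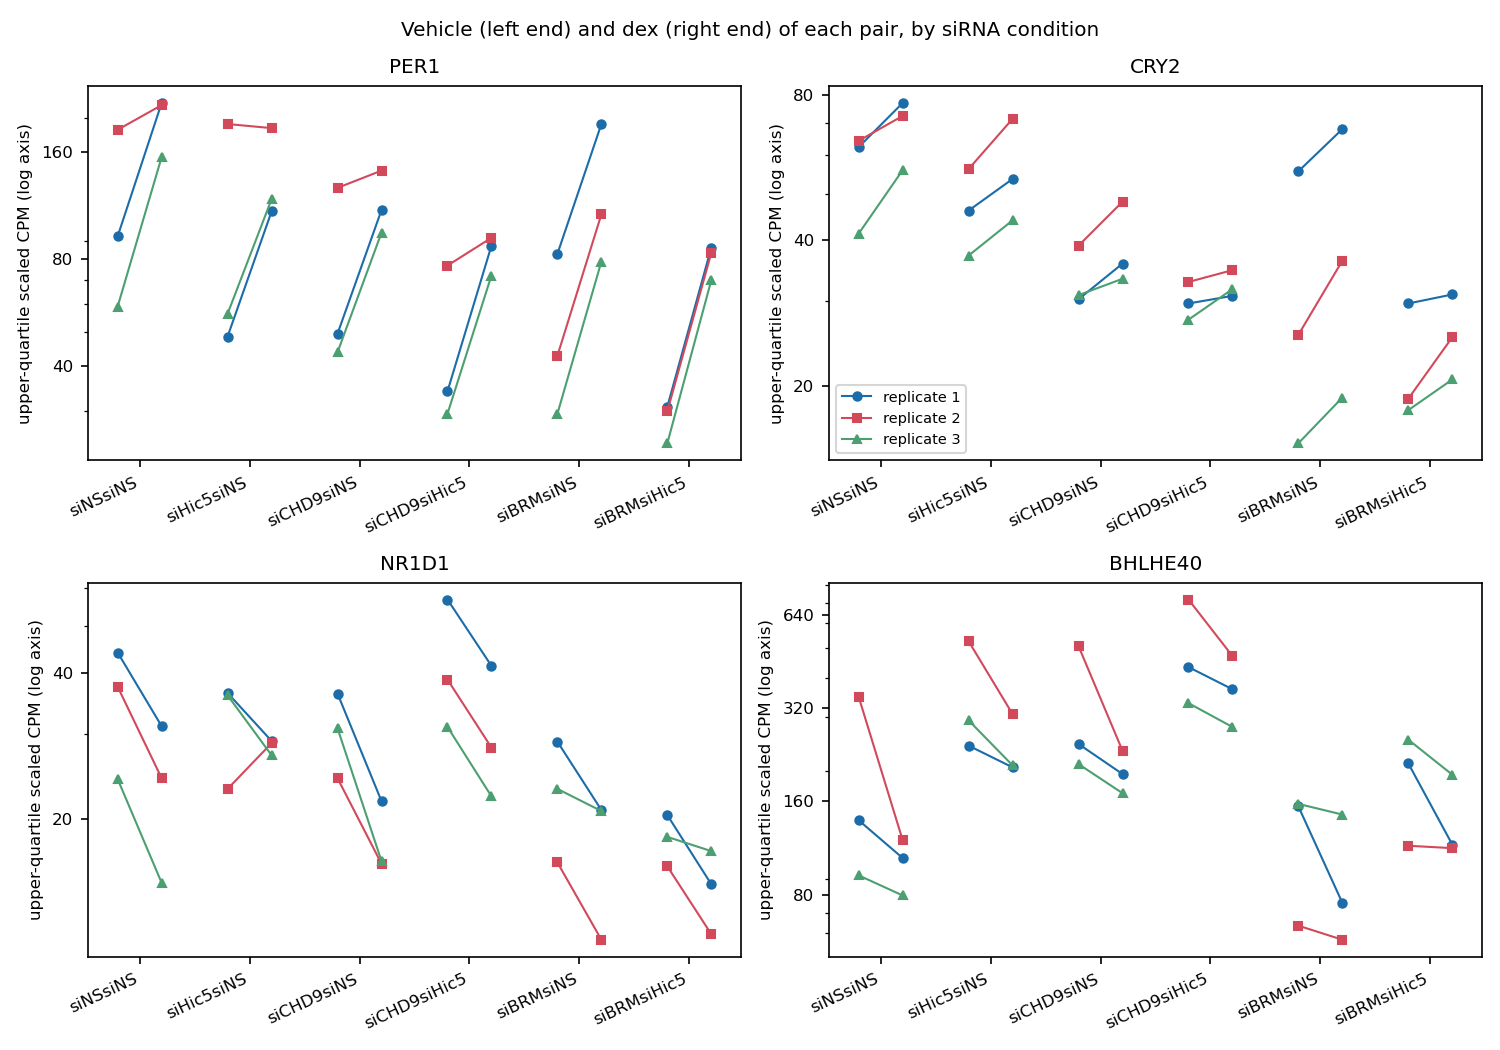
PER1, CRY2, NR1D1 and BHLHE40 in each library, in scaled CPM on a log axis; each line joins the vehicle library (left) to the dex library (right) of the same replicate number. PER1 lines rise except for the second siHic5siNS pair (192 to 187 CPM), CRY2 lines all rise, NR1D1 lines fall except for the second siHic5siNS pair, and BHLHE40 lines all fall.

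The contrast of the mean over the 6 responses called 2 of the 10 clock genes without the block, against 5.78% of all genes, and 4 of 10 with it, against 27.7%. The limit given for the PER1 mean, that pairs share replicate numbers, holds for every gene in this contrast. The 4 are those described above, and NR1D2 at -0.14 missed the threshold (edgeR adjusted p = 0.0511). Outside them, PER2 and DBP passed with the block in siCHD9siNS alone, where 24.1% of all genes passed. PER2 was 40.1, 47.9 and 36.3 CPM in vehicle and 52.1, 55.1 and 40.7 CPM with dex there, a rise of 0.25 ± 0.08 (edgeR adjusted p = 0.0318). DBP was 14, 11.7 and 17.3 against 8.86, 9.64 and 11.5 CPM, a fall of -0.52 ± 0.18 (edgeR adjusted p = 0.0437), with all dex libraries below all vehicle libraries. Without pair 1, 2 or 3 neither passed (PER2 0.18, 0.27 and 0.29, adjusted p = 0.269, 0.0683 and 0.0517; DBP -0.45, -0.63 and -0.47, adjusted p = 0.242, 0.0515 and 0.161). The DBP call was also lost with the block and no scaling factors (-0.47, edgeR adjusted p = 0.0641). PER3, CRY1, NR1D2 and TEF passed in no single condition with or without the block. PER3 ranged from 37.2 to 74.5 CPM over all libraries and CRY1 from 32.2 to 64 CPM.

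The dex responses were compared between siRNA conditions to ask whether depletion altered them. Of 50 tests (10 genes in 5 differences) none passed in edgeR with or without the block, with 0 and 7 at an unadjusted p under 0.05, and DESeq2 and limma called 0. The background was 0% in 4 of the differences and 0.00659% in siCHD9siNS minus siNSsiNS without the block, and 0.184%, 4.03%, 0%, 0.145% and 0.184% with it. The lowest adjusted p was 0.136, for PER2 in siCHD9siNS minus siNSsiNS (0.3). For the BRM and Hic-5 siRNA pair, PER1 responded 0.77 ± 0.35 more in siBRMsiHic5 than in siHic5siNS (block, edgeR adjusted p = 0.331). The PER1 folds in siHic5siNS were 2.24, 0.977 and 2.09, the second from the high vehicle library numbered 2. In that difference PER2 (0.4 ± 0.12), PER3 (0.35 ± 0.13) and TEF (0.3 ± 0.13) had lower adjusted p (block, edgeR, 0.145, 0.231 and 0.312). NR1D1 responded 0.46 ± 0.16 more positively in siHic5siNS than in siNSsiNS (block, edgeR adjusted p = 0.448). A difference between conditions in the dex response of these genes was thus not detected at this number of pairs.

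In vehicle, without hormone, 9 of the 10 genes were lower in siBRMsiHic5 than in siNSsiNS, and in siHic5siNS DBP and NR1D2 were lower and TEF higher. Of the 9, 5 passed without the libraries numbered 2 (DBP, PER1, PER2, PER3 and TEF), and CRY1, CRY2, NR1D1 and NR1D2 did not. CHD9 RNA was lower in siBRMsiHic5 too, and its part in these changes was not tested. The 5 comparisons with siNSsiNS share those 3 vehicle libraries, and the 2 with siHic5siNS share its 3, so their directions are not independent of one another. Of the 10 genes, 3, 1, 1, 5 and 9 passed in siHic5siNS, siCHD9siNS, siBRMsiNS, siCHD9siHic5 and siBRMsiHic5 against siNSsiNS, where 53.1%, 32.3%, 6.45%, 52.6% and 48.9% of all genes passed. Against siHic5siNS, 2 passed in siCHD9siHic5 and 6 in siBRMsiHic5, with backgrounds of 47.7% and 49.4%. Apart from siBRMsiHic5, the share of clock genes called was thus near or below the share over all genes. Without both siBRMsiNS libraries numbered 1, 4 of the 10 passed in siBRMsiNS in place of 1. That run kept replicate 3, which stood apart the other way, and no vehicle comparison was run without both libraries numbered 3. The median change of the 10 genes in siBRMsiHic5 was -1.14 against siNSsiNS and -0.84 against siHic5siNS, beside -0.01 and 0.02 over all genes. Replicate numbers paired the vehicle libraries in siCHD9siNS and siCHD9siHic5 against siNSsiNS and in siCHD9siHic5 against siHic5siNS. There a block for replicate number, a term shared by all 36 libraries, gave 2, 5 and 3 calls, against 38.1%, 57.3% and 52.7% of all genes. In the vehicle comparisons below, the block means this term. It assumes that a replicate number acts alike in every condition. BHLHE40 in the vehicle libraries numbered 2, low with BRM siRNA and high without it, departed from that.

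**Figure D4:**
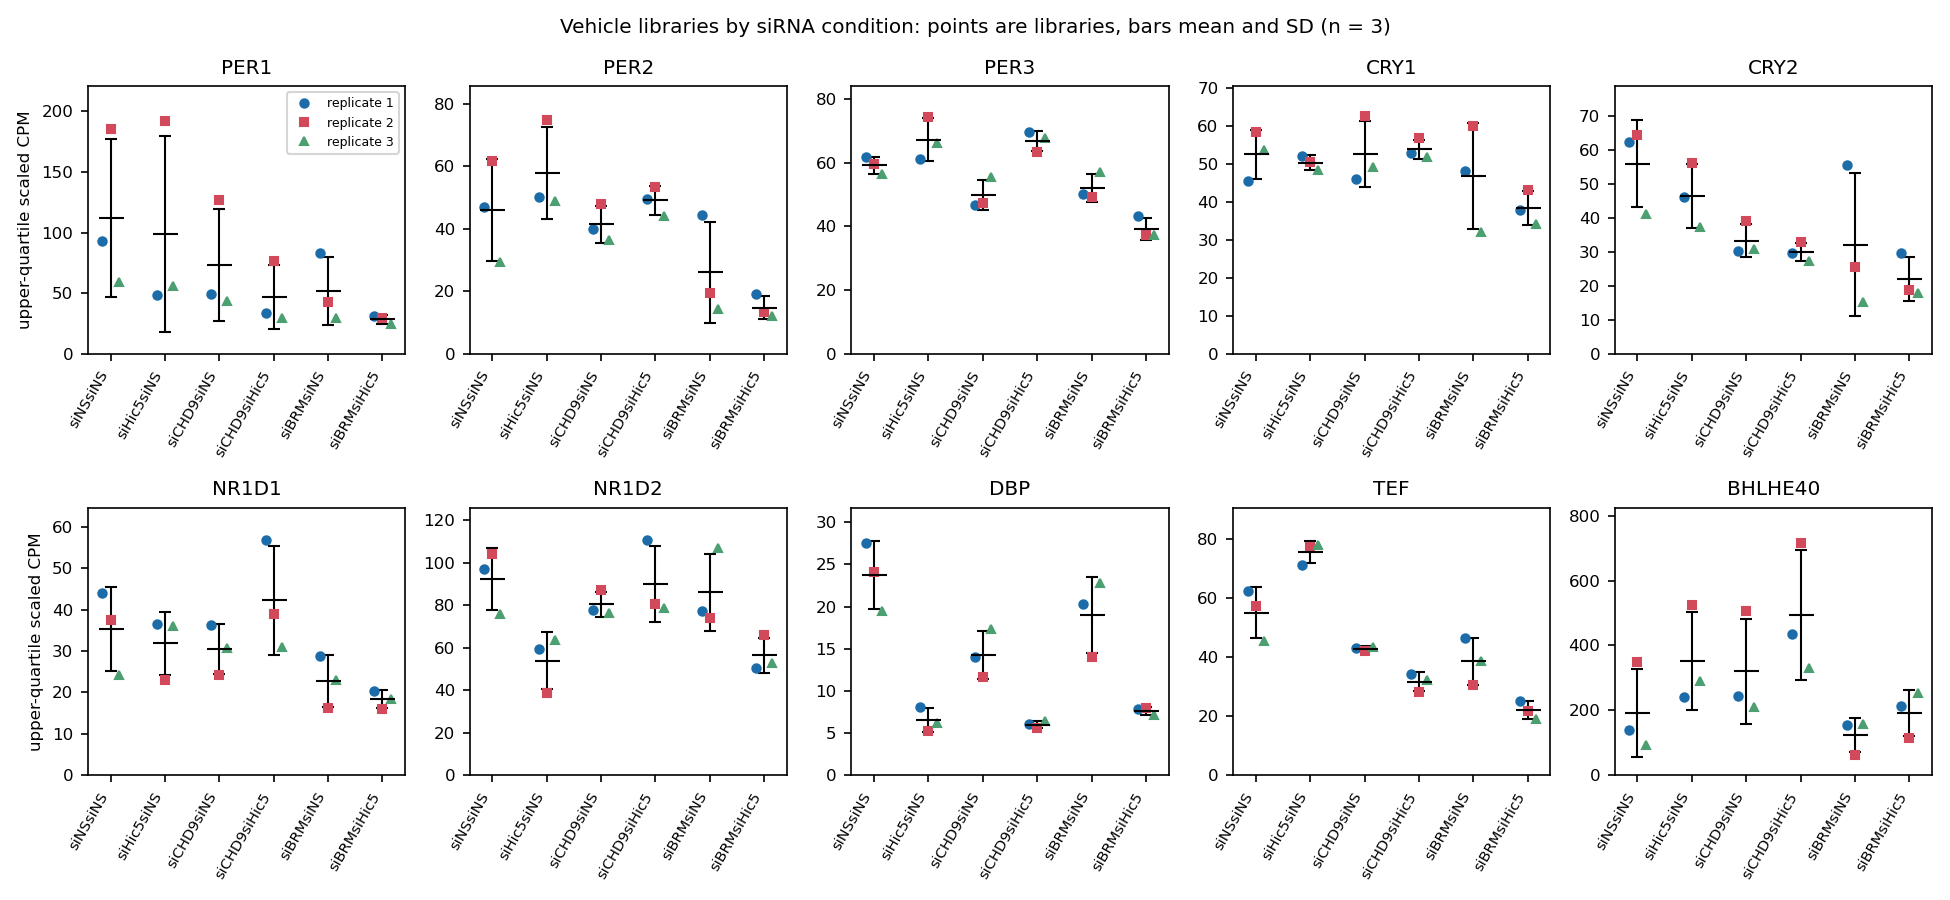
Scaled CPM of each clock gene in the vehicle libraries, by siRNA condition; points are libraries, bars are mean and SD (n = 3). DBP is low wherever Hic-5 siRNA was used (5.31 to 8.08 CPM against 19.5 to 27.5 in siNSsiNS), and PER2 and TEF are lowest in siBRMsiHic5.

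DBP, an output activator, responded most to Hic-5 depletion. It stood at 27.5, 24.1 and 19.5 CPM in siNSsiNS vehicle and at 8.08, 5.31 and 6.15 CPM in siHic5siNS. The 2 groups did not overlap, and DBP fell by 1.86 ± 0.27 (edgeR adjusted p = 2.06e-06), that is 3.63-fold lower. It was 6.07, 5.56 and 6.42 CPM in siCHD9siHic5 and 7.8, 7.98 and 7.12 CPM in siBRMsiHic5, falls of 1.97 and 1.63 (edgeR adjusted p = 7.68e-07 and 1.81e-05). In siBRMsiNS it was 20.3, 14 and 22.8 CPM, which did not pass (-0.31, adjusted p = 0.451), and in siCHD9siNS 14, 11.7 and 17.3 CPM, a fall of 0.72 (edgeR adjusted p = 0.0324) that no longer passed without replicate 1 or 2 of either group (-0.59 to -0.71, adjusted p = 0.0757 to 0.128) or without all libraries numbered 2 (-0.58, adjusted p = 0.0986). The fall of 1.86 in siHic5siNS and those in siCHD9siHic5 and siBRMsiHic5 held without any 1 library.

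TEF, the relative of DBP, went the other way with Hic-5 siRNA alone. It stood at 62.4, 57.3 and 45.5 CPM in siNSsiNS, 71.2, 77.4 and 78.1 CPM in siHic5siNS, 46.4, 30.7 and 38.7 CPM in siBRMsiNS, 34.4, 28.2 and 32.4 CPM in siCHD9siHic5 and 25.1, 21.7 and 19.1 CPM in siBRMsiHic5. All siHic5siNS libraries were above all siNSsiNS libraries, and all siCHD9siHic5 and siBRMsiHic5 libraries below them. It rose by 0.46 in siHic5siNS (edgeR adjusted p = 0.0171), and the value without siNSsiNS replicate 3 was 0.34 (0.109) and without all libraries numbered 2 it was 0.47 (0.0792). The fall of 0.51 in siBRMsiNS (0.0495) was lost with limma (adjusted p = 0.0536) and with only the groups compared (-0.51, edgeR adjusted p = 0.291). That fall was also lost without siNSsiNS replicate 1 or 2 or siBRMsiNS replicate 2 or 3 (-0.37 to -0.52, 0.164 to 0.243), and without all libraries numbered 2 (-0.34, 0.36). TEF fell by 0.8 in siCHD9siHic5 (0.000146) and by 1.33 in siBRMsiHic5 (5.03e-07). Against siHic5siNS the falls were 1.25 and 1.78 (edgeR adjusted p = 3.69e-07 and 2.28e-09).

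The period genes were lower in siBRMsiHic5. PER2, a core repressor, was at 47.1, 61.8 and 29.3 CPM in siNSsiNS, 50.1, 74.7 and 48.8 in siHic5siNS, and 19, 13.4 and 12.1 CPM in siBRMsiHic5, with no overlap with either. The fall was 1.64 against siNSsiNS and 1.97 against siHic5siNS (edgeR adjusted p = 0.000308 and 3.39e-05), and held without any 1 library. In siBRMsiNS it was 44.5, 19.6 and 14.3 CPM, where replicate 1 stood high. PER3, a repressor with a smaller part in the loop, was 61.7, 59.7 and 56.3 CPM in siNSsiNS, 61.1, 74.5 and 66.1 in siHic5siNS and 43.3, 37.4 and 37.2 CPM in siBRMsiHic5, falls of 0.59 and 0.78 (edgeR adjusted p = 0.000273 and 8.57e-06). PER1 vehicle levels, given above, were lower by 1.99 ± 0.5 in siBRMsiHic5 than in siNSsiNS (edgeR adjusted p = 0.00174), and by 1.8 than in siHic5siNS (0.00347). The latter was -0.89 (adjusted p = 0.128) without siHic5siNS replicate 2 and -0.93 (0.0841) without all libraries numbered 2. In siCHD9siHic5 PER1 fell by 1.26 against siNSsiNS (edgeR adjusted p = 0.0299), and the value without siNSsiNS replicate 2 was -0.7 (0.265), and without siCHD9siHic5 replicate 1 or 3 -1.08 and -1.02 (0.113 and 0.125). With the block PER1 also passed in siCHD9siHic5 against siHic5siNS (-1.03, adjusted p = 0.0198), where it had not without it (-1.08, adjusted p = 0.0658).

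The cryptochromes followed the same comparison to different extents. CRY2 was 62.4, 64.3 and 41.3 CPM in siNSsiNS vehicle, 30.2, 39 and 30.8 in siCHD9siNS, 29.6, 32.8 and 27.4 in siCHD9siHic5, 55.6, 25.5 and 15.2 in siBRMsiNS, and 29.6, 18.8 and 17.8 CPM in siBRMsiHic5. Those of siCHD9siNS, siCHD9siHic5 and siBRMsiHic5 lay below all siNSsiNS libraries. The falls passed in siCHD9siHic5 (0.9, edgeR adjusted p = 0.0319) and siBRMsiHic5 (1.34, 0.00274). The first was lost without any siCHD9siHic5 library or without siNSsiNS replicate 1 or 2 (-0.79 to -0.97, 0.0507 to 0.0979). Without all libraries numbered 2 neither passed (-0.86 and -1.13, adjusted p = 0.198 and 0.0949). Against siHic5siNS, CRY2 fell by 1.08 in siBRMsiHic5 (edgeR adjusted p = 0.0128), and this was lost without siHic5siNS replicate 2 or siBRMsiHic5 replicate 2 or 3 (-0.92, -0.98 and -0.94, 0.0582, 0.0524 and 0.0602), and without all libraries numbered 2 (-0.82, 0.231). In siCHD9siNS the change of -0.75 had an adjusted p of 0.0995 without the block and, with it, -0.71 at 0.0419. CRY1 was 45.6, 58.6 and 53.7 CPM in siNSsiNS and 38, 43.3 and 34.2 CPM in siBRMsiHic5, a fall of 0.45 (edgeR adjusted p = 0.0368) that was lost without siNSsiNS replicate 2 or 3 or siBRMsiHic5 replicate 1 or 3 (-0.37 to -0.44, 0.0748 to 0.14), and without all libraries numbered 2 (-0.46, 0.0788).

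The REV-ERB genes and BHLHE40 also changed in some of the comparisons. NR1D2 was 96.9, 104 and 75.9 CPM in siNSsiNS, 59.6, 38.6 and 63.7 in siHic5siNS and 50.6, 66 and 53 CPM in siBRMsiHic5, all below the control libraries. It fell by 0.77 and 0.71 (edgeR adjusted p = 0.0144 and 0.0265); the former was -0.58 (0.0955) without siHic5siNS replicate 2, -0.68 (0.0567) without siNSsiNS replicate 2 and -0.49 (0.235) without all libraries numbered 2. The latter was lost without siNSsiNS replicate 1 or 2 or siBRMsiHic5 replicate 1 or 3 (-0.61 to -0.67, 0.0681 to 0.0926), and without all libraries numbered 2 (-0.74, 0.0759). In siCHD9siHic5 NR1D2 stood at 111, 80.8 and 78.6 CPM, 0.74 above siHic5siNS (edgeR adjusted p = 0.0215), and the value was 0.56 (0.118) without siCHD9siHic5 replicate 1, 0.55 (0.127) without siHic5siNS replicate 2 and 0.62 (0.141) without all libraries numbered 2. NR1D1 was 20.4, 16 and 18.4 CPM in siBRMsiHic5 vehicle, a fall of 0.95 against siNSsiNS (edgeR adjusted p = 0.00819), with no overlap, and of 0.8 against siHic5siNS (0.0227). Without siNSsiNS replicate 1 the first was -0.76 (0.0561), and the second was lost without siHic5siNS replicate 1 or 3 or siBRMsiHic5 replicate 2 or 3 (-0.7 to -0.81, 0.0525 to 0.0805). Without all libraries numbered 2 neither passed (-0.82 and -0.9, adjusted p = 0.0837 and 0.0614). BHLHE40 rose in siCHD9siHic5, at 434, 717 and 332 CPM against 139, 348 and 92.3 in siNSsiNS (1.36 ± 0.45, edgeR adjusted p = 0.0125), where the groups overlapped; the value without siNSsiNS replicate 1 or 3 was 1.17 and 1.02 (0.0628 and 0.0791), and without siCHD9siHic5 replicate 2 0.99 (0.0903). It was the one gene of the 10 that did not pass in siBRMsiHic5 against siNSsiNS (0.0, adjusted p = 0.995). Of the 27 calls in these 7 comparisons, 13 were kept without any 1 library and 14 without all libraries numbered 2.

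Of 23 further clock genes, the block called 3, 6, 6, 5, 1 and 2 in the dex responses of siNSsiNS, siHic5siNS, siCHD9siNS, siBRMsiNS, siCHD9siHic5 and siBRMsiHic5, and 0 passed without it. The shares over all genes with the block were 2.5%, 8.93%, 24.1%, 3.91%, 4.74% and 5.95% in the same order. KLF9, a glucocorticoid-induced transcription factor, rose with the block in all 6 conditions, by 0.54, 0.73, 0.4, 0.67, 0.7 and 0.85. NFIL3, the repressor at D-boxes, rose in siNSsiNS (0.37), siHic5siNS (0.35), siCHD9siNS (0.29) and siBRMsiNS (0.29). NOCT, a rhythmic phosphatase, fell in siNSsiNS (-0.47), siHic5siNS (-0.66), siBRMsiNS (-0.39) and siBRMsiHic5 (-0.44). CSNK1D, a kinase that phosphorylates PER proteins, rose in siHic5siNS (0.27) and RORA in siCHD9siNS (0.52), while CLOCK fell in siBRMsiNS (-0.35). Over the mean of the 6 responses, 6 rose and 6 fell with the block, where 27.7% of all genes passed. Without the block only KLF9 (0.63) and NFIL3 (0.28) passed.

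In vehicle, 13 of the 23 passed in siHic5siNS (7 higher, 6 lower), 5 in siCHD9siNS (all lower), 0 in siBRMsiNS, 12 in siCHD9siHic5 (4 higher, 8 lower) and 12 in siBRMsiHic5 (1 higher, 11 lower) against siNSsiNS. The shares over all genes were 53.1%, 32.3%, 6.45%, 52.6% and 48.9% in the same order. The counts among the 23 were thus near or below the background. In siHic5siNS, NPAS2, the paralogue of CLOCK, rose by 1.73 and NFIL3 by 0.65, and the kinase gene CSNK2A1 fell by 0.68. In siCHD9siNS, RORA fell by 1.18, CLOCK by 0.61 and the ligase gene FBXW11 by 0.46. In siCHD9siHic5, the kinase gene GSK3B rose by 0.77 and NAMPT, an enzyme of NAD synthesis, by 0.84, while CLOCK fell by 0.75. In siBRMsiHic5, BHLHE41 (DEC2, the relative of BHLHE40) fell by 2.72, HLF (a D-box activator like DBP and TEF) by 1.73 and RORA by 0.86. The low BHLHE41 was not particular to siBRMsiHic5. Its vehicle means were 12.6 CPM there, 17.3 in siHic5siNS and 13.5 in siCHD9siHic5, against 82.7 in siNSsiNS, 42.3 in siCHD9siNS and 46.2 in siBRMsiNS. HLF was low throughout, at 1.3 CPM in siNSsiNS vehicle, 0.39 in siBRMsiHic5 and 0.458 in siCHD9siHic5. Against siHic5siNS, 8 of the 23 passed in siCHD9siHic5 (2 higher, 6 lower) and 14 in siBRMsiHic5 (3 higher, 11 lower), with backgrounds of 47.7% and 49.4% of all genes. NPAS2 fell by 1.99 and 1.92 in these 2 comparisons and RORA by 0.93 and 1.4. CSNK2A1 rose by 0.71 in the first while CSNK1E fell by 1.79 in the second. NPAS2 was thereby at 16.5 and 17.3 CPM, near its 19.8 CPM in siNSsiNS (65.5 in siHic5siNS). CSNK2A1 was at 176 CPM, near its 173 CPM in siNSsiNS (108 in siHic5siNS). RORA, at 26.8 and 19.3 CPM, was below its 35.2 CPM in siNSsiNS. CSNK1E was low throughout, at 0.729 CPM in siBRMsiHic5, 0.913 in siNSsiNS and 2.55 in siHic5siNS.

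Strand of the counting is not given in the sources used here, so genes with an overlapping neighbour are uncertain. NR1D1 shares 263 exon bases with THRA on the opposite strand. THRA fell in vehicle by 1.71 in siCHD9siNS, 2.37 in siCHD9siHic5 and 1.41 in siBRMsiHic5, whereas NR1D1 passed only in the last. DBP shares 661 exon bases with SPHK2, which stood between 15.9 and 21.4 CPM in the vehicle means and did not pass in siHic5siNS (-0.19, adjusted p = 0.206), where DBP fell. PER3 shares 868 exon bases with UTS2, which was not analysed here.

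Over the 12 group means, the gene closest in pattern to DBP was SUOX (Pearson r = 0.981), to PER2 TP53INP1 (0.989), to TEF SV2A (0.982), to CRY2 ADGRA2 (0.974), to BHLHE40 TRIB1 (0.975) and to PER1 ABCC8 (0.954). NR1D2 was closest to AMOT (0.958), PER3 to LOC729218 (0.964), CRY1 to FAM95B1 (0.959) and NR1D1 to EPPK1 (0.901). These are the closest among the genes tested that had a symbol and a mean of at least 1 scaled CPM. The 12 points share siRNA conditions, and no p is given. Between members, PER2 and CRY1 had r = 0.92, CRY2 and TEF 0.86, PER2 and PER3 0.86, and DBP and BHLHE40 -0.77.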

How the data were processed

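The deposited table held a whole-number count for each gene in each of 36 libraries. Its label mentions scaled CPM, but the column totals differ as raw counts do, and it was read as counts. Per the submitters' processing notes, TopHat2 2.1.1 and edgeR were used with GRCh38. For the read counter, the annotation and the strand setting the sources used here give no name. Counts were tested with edgeR 4.0.16 (R 4.3.3): upper-quartile factors, quasi-likelihood fit of 12 group means over all 36 libraries (24 residual degrees of freedom), Benjamini-Hochberg adjustment over 15179 genes above 1 scaled CPM in at least 3 libraries (7 genes left out). That fit counts the vehicle and dex libraries of a pair as independent, so its 24 degrees of freedom are too many where pairs deviate together. Called means an adjusted p under 0.05. limma 3.58.1 and DESeq2 1.42.0 were alternatives.

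Same-numbered vehicle and dex libraries deviated together (correlation 0.458 to 0.922 over 18 pairs), so their pairing by replicate number was fitted as a block of 18 pairs plus 6 dex terms (12 residual degrees of freedom). That block served the dex responses and their differences. It counts the 18 pairs as independent, though pairs of the same replicate number may depart together. The SE and p of the mean of the 6 responses may then be too small. For the vehicle comparisons between siRNA conditions the block was another model, the 12 group means plus a replicate-number term shared by all 36 libraries. Replicates were made on different days, and p-values measure the spread between them. All 36 replicate pairs differed by more than sampling noise (chi-square over its degrees of freedom at least 9.41). Groups came from the labels. Scripts were tested on simulated counts.

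The members and gene lists were chosen with earlier results of these data known. The mean of the 6 dex responses, the immediate early genes, and the runs without libraries numbered 2 or siBRMsiNS replicate 1 were added after the data were seen. Named genes are all members, at most 3 further clock genes called per comparison (smallest p), and, by a fixed list, checks and neighbours. KLF9, NFIL3 and NOCT, named so in siNSsiNS, are given wherever called, which was decided after their values were seen. A further clock gene that this rule names is not reported here. Levels per kb used the longest principal GENCODE 29 transcript. Promoters are RefSeq windows of GRCh38.p14.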

Additional observations from a re-analysis of the deposited data

How the results depend on the processing

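Over 31 counts of called genes, 404 of 453 alternative values stayed within 1.5 times of the count reported and 49 moved. The 404 include counts of 0 that stayed 0, as occurred in the single dex responses and their differences. Those say little about stability. Of 670 values for 47 single-gene results, 586 kept their direction and side of the threshold, 84 kept the direction but lost the call, and 0 reversed. The replicate block, for the 6 dex responses (siNSsiNS, siHic5siNS, siCHD9siNS, siBRMsiNS, siCHD9siHic5, siBRMsiHic5), raised the count from 0 to 3, 1, 5, 2, 2 and 1. In siBRMsiHic5 fitting only the groups compared gave 1. With the block, leaving out 1 pair gave 1 to 3 in siNSsiNS, 1 to 2 in siHic5siNS and in siCHD9siNS, 1 to 2 in siBRMsiNS, 0 to 1 in siCHD9siHic5 and 1 to 3 in siBRMsiHic5. With the block and without all libraries numbered 2 there were 2 in siHic5siNS, 1 in siBRMsiNS and 2 in siBRMsiHic5. For the mean of the 6 responses the count was 2, with the block 4, and without all libraries numbered 2 it was 1. For siCHD9siNS against siNSsiNS the count was 1, and the block, no scaling factors and only the groups compared each gave 2; without 1 library it ran from 0 to 2. For siBRMsiNS the count was 1, with the block 3, with limma 0, with only the groups compared 0, without 1 library 0 to 4, without all libraries numbered 2 0, and without both siBRMsiNS libraries numbered 1 it was 4. For siCHD9siHic5 the count ran from 3 to 5 without 1 library against siNSsiNS, and from 1 to 2 against siHic5siNS, where it was 1 without the libraries numbered 2. Without the libraries numbered 2 the count was 3 for siBRMsiHic5 against siHic5siNS, in place of 6, and, against siNSsiNS, 6 in place of 9 for siBRMsiHic5 (5 of the 9 and 1 other) and 2 in place of 3 for siHic5siNS (1 of the 3 and 1 other). The causes were not tested.

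In the vehicle comparisons of siHic5siNS, siBRMsiNS and siBRMsiHic5 not every same-numbered pair correlated above 0.1, so the number was not taken as pairing. The correlations were all positive in siHic5siNS against siNSsiNS (0.0382 to 0.329). In the comparisons with BRM siRNA they went as low as -0.242, in siBRMsiHic5 against siHic5siNS. The block gave 3 calls in siBRMsiNS and added CRY1 to siBRMsiHic5 against siHic5siNS (-0.4, edgeR adjusted p = 0.0301). It changed no other call there.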
